A study of Mus musculus with 27 samples.

Results

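Loss of gasdermin E was examined in mouse skeletal muscle on day 1 after injury. The comparison was of 3 RNA-seq libraries labelled KO-CTX-Day1 with 3 labelled WT-CTX-Day1, which are 6 of the 27 libraries of the series. A gene was a member if it had at least 1 TPM in at least 3 of these 6 libraries, and 13810 of 55852 entries were members. TPM, the unit of all levels below, is a relative abundance: reads are corrected for the length of a gene, and every library sums to the same total. Since 3 libraries were enough, a gene could enter through a single genotype, and 42042 entries were not tested.

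WT mice were C57BL/6J and KO mice carried a global deletion of Gsdme, which was not limited to a cell type. Only males were used. Both genotypes received cardiotoxin (CTX, a toxin from cobra venom that destroys muscle fibres) in the gastrocnemius, and no day 1 group of KO muscle without CTX was analysed here. The labels call the KO samples both KO and knockdown, and the deposited description names thigh muscle. Ages and the number of animals behind a library are not given, so that p-values below measure the spread between libraries. Other libraries were 18 of both genotypes from days 4, 7 and 14 and 3 of WT control muscle. The study's methods describe uninjured muscle for sequencing as taken from the leg opposite to the injury. The titles do not link control libraries to animals, so whether they share animals with the WT day 1 libraries is not known.

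Gasdermin E is a cytosolic protein whose amino-terminal domain perforates the plasma membrane once caspase-3 has freed it, which lets a dying cell release its contents. In injured muscle, neutrophils enter first and are followed by blood monocytes, which turn into macrophages that clear dead fibres, while satellite cells, the stem cells of the fibre, begin to divide. Day 1 falls in the first, inflammatory part of this sequence, before new fibres have formed.

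The 6 libraries did not separate by genotype. On log2(TPM + 1), Pearson's r over genes ranged from 0.928 to 0.971 within WT, from 0.956 to 0.975 within KO and from 0.913 to 0.982 between genotypes, and the highest of all was between WT replicate 1 and KO replicate 2. The share of TPM held by the 50 most abundant genes was 42.8%, 32.8% and 48.2% in WT and 37.4%, 41.7% and 37.3% in KO. WT libraries spread more, with a median SD over genes of 0.327 on the log2 scale against 0.226 in KO. WT replicate 3 also held transcripts of the exocrine pancreas. The summed level of 20 such genes was 59.7 TPM there, with 19 of 20 above 0, against 4.41 to 7.29 TPM in the other 5 libraries with 6 or 7 above 0. Ctrb1, a digestive protease precursor, was at 15.7 TPM in WT replicate 3 and at most 0.34 TPM in the others. The same library held 61.5 TPM of these genes in the separate table with the controls. The part of these transcripts in the results was not tested, and list medians are given below with and without WT replicate 3. Of 76 genes whose values were compared in this way, 38 had a log2 difference over 1.5 times larger with this library than without it, 1 had one over 1.5 times smaller, and 0 had the opposite sign. The study describes 2 sequencing batches, a batch of injured and uninjured muscle and a batch of both genotypes over the 4 days. Since the WT day 1 libraries stand in the tables of both, which batch they were made in is not clear, and batch and genotype cannot be told apart if it was the former. Levels of control muscle come from the other, separately quantified table, are given beside the day 1 levels for orientation and were not tested against them.

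Across all tested genes, 1 gene passed an adjusted p of 0.05 (limma, Benjamini-Hochberg over 13810 genes), which is 0.00724% of those tested. An unadjusted p under 0.05 was reached by 759 genes (5.5%), of which 403 (2.92%) were higher and 356 (2.58%) lower in KO. The 3 KO libraries lay above all 3 WT libraries for 427 genes (3.09%) and below them for 467 genes (3.38%), 6.47% in all. The median log2 difference, KO minus WT, was 0.10, and 65% of genes were above 0. These shares are the background against which the groups below are read. The gene lists below are described by their counts and medians and were not tested as sets.

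The targeted gene Gsdme (ENSMUSG00000029821, chr6:50188888-50263862, minus strand, GRCm38) was lower in KO without reaching 0. It was at 2.76, 4.85 and 3.16 TPM in WT and at 1.53, 1.28 and 2.17 TPM in KO. All 3 KO libraries lay below all 3 WT libraries, and the KO mean of 1.66 ± 0.459 TPM (SD, n = 3) was near that of WT control muscle, 1.85 ± 0.430 TPM. The log2 difference of −0.77 (SE 0.189) did not pass the threshold (limma adjusted p = 0.564), and the exact two-sided permutation p was 0.1, the smallest that 3 against 3 allows. Gsdme overlaps Mpp6 on the opposite strand. Whether counting used strand is not given in the sources used here, so without strand reads of Gsdme and Mpp6 cannot be told apart, and which exons the deleted allele lacks is not visible in a value per gene.

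The gene that passed was Gm42793 (ENSMUSG00000105954, chr5:104435121-104436372, plus strand), annotated as a locus of the TEC class, whose transcript awaits experimental proof. It was at 1.13, 0.51 and 0 TPM in WT and at 4.05, 3.02 and 4.16 TPM in KO. Every KO library was above every WT library, and the 3 control libraries were at 0. It rose by 1.68 on the log2 scale (SE 0.239, adjusted p = 0.0139). The call was lost, with the same direction, when WT replicate 2, WT replicate 3, KO replicate 1 or KO replicate 3 was left out (adjusted p from 0.0694 to 0.115), and in a fit of the 6 day 1 libraries alone (adjusted p = 0.902). With a pseudocount of 0.1 in place of 1 the log2 difference was 3.17 and the call was lost too (adjusted p = 0.823). Gm42793 lies at the start of Spp1 (ENSMUSG00000029304, chr5:104435118-104441050) on the same strand. Of its 1252 bases, 76 are in the first exon and 1176 in the first intron of the main annotated Spp1 transcript, it ends 2 bases before the second exon, and 943 of its bases are outside every exon of the 7 annotated Spp1 transcripts. Spp1 reads that retain the first intron and reads of Gm42793 itself cannot be told apart in these values.

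Spp1 encodes osteopontin, a secreted matrix protein and cytokine that macrophages make in quantity in injured muscle. Its level was 859, 872 and 133 TPM in WT and 2581, 1699 and 1986 TPM in KO, against 6.19 ± 2.24 TPM (SD, n = 3) in control muscle. The groups did not overlap, WT replicate 3 was far below the other WT libraries, and all injured libraries were above the controls. The log2 difference was 2.15 (SE 0.924), which did not pass the threshold (adjusted p = 0.844), and without WT replicate 3 it was 1.25. As a share of the Spp1 level in the same library, Gm42793 was 0.132%, 0.0585% and 0% in WT and 0.157%, 0.178% and 0.209% in KO. On day 4, Gm42793 was at 0.97, 0.1 and 0.08 TPM in WT and at 0.43, 0 and 0.05 TPM in KO, and on days 7 and 14 it was at 0 in every library. The difference on day 1 minus the mean difference of the later days was 1.75 for Gm42793 (adjusted p = 0.0567), so the contrast between days did not pass.

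The sequences at this locus are shown since the only gene that passed lies within it. The first is the 250 bases before the RefSeq start of Spp1 (GRCm38.p6, chr5:104434861-104435110, plus strand), with a core motif of PU.1, the myeloid lineage factor, in capitals. The motif searched was GAGGAAGT, or ACTTCCTC on the other strand, and 2.44% of 32851 RefSeq windows of this length hold it. The second is the 250 bases before an alternate RefSeq start of Spp1 (chr5:104435942-104436191, plus strand), which lie inside Gm42793 and outside all Spp1 exons. No motif is marked in it.
Spp1 upstream: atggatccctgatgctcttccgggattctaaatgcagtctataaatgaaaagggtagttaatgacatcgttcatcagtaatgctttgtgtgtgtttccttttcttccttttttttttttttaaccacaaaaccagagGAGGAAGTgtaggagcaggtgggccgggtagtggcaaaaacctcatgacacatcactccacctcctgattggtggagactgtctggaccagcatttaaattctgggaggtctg
Spp1 first intron: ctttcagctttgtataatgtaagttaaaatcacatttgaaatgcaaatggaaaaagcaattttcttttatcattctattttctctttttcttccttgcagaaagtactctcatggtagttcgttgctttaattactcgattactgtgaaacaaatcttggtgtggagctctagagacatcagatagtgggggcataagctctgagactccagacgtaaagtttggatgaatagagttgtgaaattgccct

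**Figure D1:**
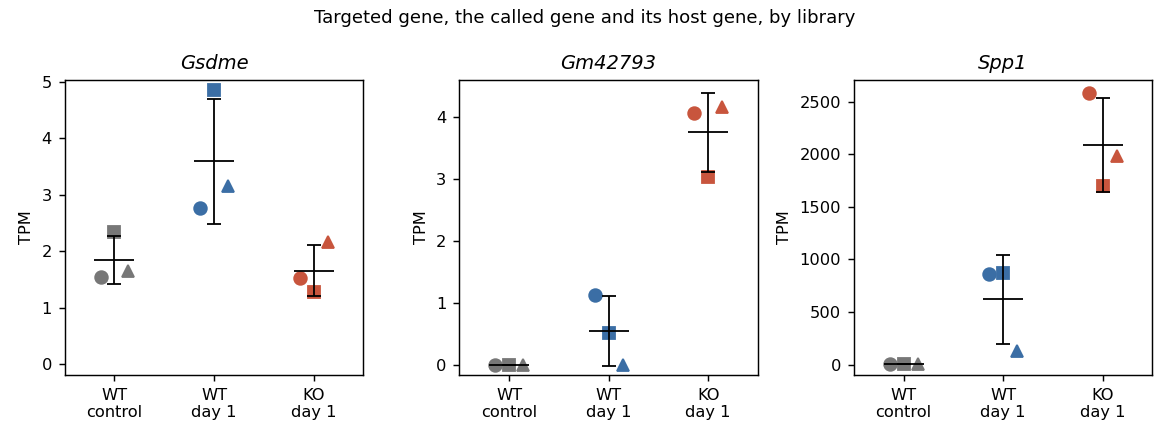
Level in TPM (y axis) of Gsdme, Gm42793 and Spp1 in each WT control, WT day 1 and KO day 1 library (points), with horizontal lines for the mean and bars for the SD of the 3 libraries of a group. Gsdme was lower in all KO than in all WT day 1 libraries, and Gm42793 and Spp1 were higher.

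Beyond these, 11 genes higher and 12 lower in KO, among those with the lowest unadjusted p, a mean of at least 5 TPM in a genotype and no overlap between groups, had adjusted p from 0.162 to 0.819. No test is drawn from their lack of overlap, which chose them. Log2 differences were from 0.70 to 1.18 among the higher and from −1.28 to −0.48 among the lower genes. WT replicate 3 was the lowest WT library for 10 of the 11 higher genes and the highest WT library for 11 of the 12 lower genes. For 17 of the 23 the KO mean was farther from the control mean than the WT mean was, on log2(TPM + 1).

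Among the higher genes, Polr2m, which encodes a subunit associated with RNA polymerase II, had the lowest p. It was at 90.7, 95.8 and 92.96 TPM in WT and at 151, 247 and 209.8 TPM in KO, a log2 difference of 1.09 (SE 0.208, adjusted p = 0.162). Inpp1, an inositol phosphate phosphatase, was at 4.33, 3.08 and 3.03 TPM in WT and at 9.83, 6.66 and 9.85 TPM in KO (1.12 on the log2 scale, SE 0.219, adjusted p = 0.164). WT values of both genes lay close together, so that no single WT library set the difference.

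Next by p among the higher genes was Ccl24, an eosinophil-attracting chemokine made by macrophages, at 9.53, 11.3 and 8.33 TPM in WT and at 27.7, 22.8 and 18.0 TPM in KO (log2 difference 1.14, adjusted p = 0.564). Tarm1, a receptor on neutrophils and macrophages, was at 3.47, 3.92 and 0.74 TPM in WT and at 6.70, 5.38 and 7.97 TPM in KO, a log2 difference of 1.18 with WT replicate 3 far below the rest. Cebpb, a transcription factor of macrophage activation and of the acute phase, was at 48.2, 60.3 and 39.7 TPM in WT and at 72.4, 138 and 121 TPM in KO (log2 difference 1.12, adjusted p = 0.815). All 6 injured libraries were above the control mean of 14.1 TPM for Cebpb.

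Dio3, the deiodinase that inactivates thyroid hormone, was at 3.73, 3.13 and 1.31 TPM in WT and at 6.63, 6.27 and 6.75 TPM in KO (log2 difference 1.08). The SD of the KO libraries was 0.250 TPM and control muscle was at 0.357 TPM. Log2 differences of the remaining higher genes were 0.96 for Junos, 0.90 for Eogt, a glycosyltransferase, 0.85 for Hebp1, a heme-binding protein, and 0.70 each for Palm and Taf10. Junos is antisense to Jun, so that its reads cannot be told apart from those of Jun if strand was not used.

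Among the lower genes, Prkag3, the muscle-specific regulatory subunit of AMP-activated kinase, was at 33.7, 31.2 and 71.3 TPM in WT and at 14.0, 16.6 and 26.5 TPM in KO (log2 difference −1.16, adjusted p = 0.564), against 56.3 TPM in control muscle. Cited4, a transcriptional coactivator, had a log2 difference of −1.28 and Cers1, the ceramide synthase of muscle and brain, of −1.10. For all 3 genes WT replicate 3 was the highest WT library. Cers1 overlaps Gdf1 on the same strand, and their reads cannot be told apart.

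Nr4a1, an orphan nuclear receptor induced early by many stimuli, was at 60.6, 48.5 and 98.4 TPM in WT and at 18.6, 38.1 and 29.5 TPM in KO (log2 difference −1.23, adjusted p = 0.737). H1f2, a linker histone, was at 163, 303 and 345 TPM in WT and at 94.0, 152 and 130 TPM in KO (log2 difference −1.06), with KO near the control mean of 97.4 TPM. Zfp560, a zinc finger protein, was at 9.48, 9.92 and 10.5 TPM in WT and at 6.25, 5.96 and 6.72 TPM in KO (log2 difference −0.58). Both groups were tight, with SDs of 0.512 and 0.384 TPM. Other lower genes were Lrig1, an inhibitor of growth factor receptors (−0.73), Macrod2 (−0.70), Sobp (−0.66), Ptpn21, a tyrosine phosphatase (−0.55), and Eif1, a factor of translation start (−0.48).

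Dynlt1b, a dynein light chain, was at 136, 185 and 134 TPM in WT and at 91.0, 75.1 and 89.6 TPM in KO (−0.82 on the log2 scale, SE 0.200, adjusted p = 0.564). All KO libraries were below all WT libraries. On days 4, 7 and 14 the log2 difference was −1.29, −1.02 and −0.79. This call depended on the scaling: Dynlt1b passed with median-of-ratios scaling (−0.93, adjusted p = 0.000621), with quantile scaling (−0.89, adjusted p = 0.00675) and with the 50 most abundant genes removed (−0.88, adjusted p = 0.0183). Dynlt1b has near-identical copies, among which reads may have been split, and its value is uncertain for that reason.

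**Figure D2:**
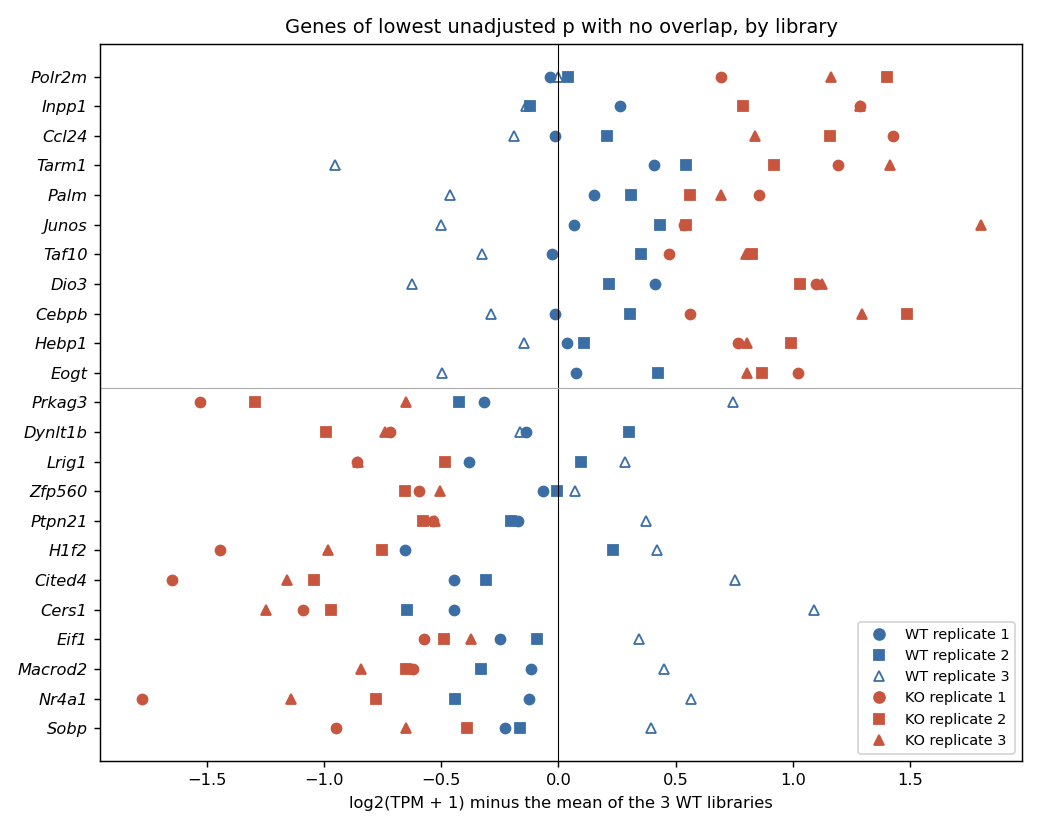
Level in each day 1 library as log2(TPM + 1) minus the mean of the 3 WT libraries (x axis) for 11 higher and 12 lower genes among those with the lowest unadjusted p (y axis), with WT in blue, KO in red and WT replicate 3 as an open triangle. WT replicate 3 is the WT library farthest from KO for 10 of the 11 higher and 11 of the 12 lower genes, and none of the 23 passed an adjusted p of 0.05.

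Transcripts of neutrophils, the first cells to enter injured muscle, were higher in KO in the median but overlapped between genotypes. Of 21 tested genes of a neutrophil list, 18 had a log2 difference above 0, with a median of 0.90 against 0.10 over all genes. An unadjusted p under 0.05 was reached by 7, all higher, where 2.92% of all genes were higher at that threshold, and 0 had separate groups. The mean of these genes on log2(TPM + 1) was 3.61, 4.35 and 2.41 in WT and 4.24, 3.41 and 5.41 in KO, and 0.61 to 0.69 in control muscle. KO replicate 3 was the highest and WT replicate 3 the lowest, while KO replicate 2 was below both other WT libraries. Without WT replicate 3 the median was 0.37 and 0 of the 21 had an unadjusted p under 0.05 (limma). Without KO replicate 3 the median was 0.34. In whole muscle, fewer cells of a type and less RNA per cell cannot be told apart.

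S100a8, a subunit of the neutrophil protein calprotectin, was at 84.7, 205 and 18.1 TPM in WT and at 204, 90.8 and 1286 TPM in KO (a log2 difference of 2.06 with an SE of 1.16). Its partner S100a9 had the same order of libraries, from 24.7 TPM in WT replicate 3 to 1785 TPM in KO replicate 3. Csf3r, the receptor for granulocyte colony-stimulating factor, was at 25.6, 52.4 and 6.08 TPM in WT and at 46.8, 23.9 and 220.4 TPM in KO (log2 difference 1.57). Without KO replicate 3 the differences were 0.98 for S100a8, 1.005 for S100a9 and 0.68 for Csf3r, and without WT replicate 3 they were 1.12, 1.06 and 0.77. Trem1, an amplifier receptor of neutrophil activation, was at 3.45, 5.48 and 0.50 TPM in WT and at 7.16, 3.69 and 14.8 TPM in KO (log2 difference 1.27, adjusted p = 0.838), and Mmp8, neutrophil collagenase, differed by 1.11. KO replicate 2 lay below WT replicate 2 in all 5 of these genes. Lcn2, among the most abundant genes of the list, went the other way, as did 3 of the 21 in all. It was at 64.4, 57.25 and 155 TPM in WT and at 48.9, 46.4 and 59.9 TPM in KO (log2 difference −0.68). WT replicate 3 was the highest library for Lcn2, and the groups overlapped.

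The list of recruited monocytes and inflammatory macrophages had 24 of 26 genes above 0 with a median of 0.81. Of the list, 5 had an unadjusted p under 0.05, all higher, against 2.92% of all genes. All KO lay above all WT libraries for 5, against 3.09% of all genes. The mean level of the list was 5.61, 6.30 and 4.26 in WT and 6.43, 5.64 and 6.37 in KO, against 1.87 to 1.96 in control muscle. WT replicate 2 was within the KO range and WT replicate 1 just under it. Without WT replicate 3 the median was 0.25 and 18 of 26 genes were above 0. At an unadjusted p under 0.05 (limma), 0 were then higher and 1 was lower. F13a1, the A chain of coagulation factor XIII and a marker of monocyte-derived macrophages, was at 43.5, 60.8 and 24.5 TPM in WT and at 94.8, 63.5 and 93.1 TPM in KO (log2 difference 1.02). Thbs1, thrombospondin 1, was at 166, 177 and 26.3 TPM in WT and at 289.8, 179 and 289.6 TPM in KO (1.41, and 0.52 without WT replicate 3), and Fn1, fibronectin, was at 260.6, 407 and 93.9 TPM in WT and at 524, 407 and 458 TPM in KO (1.09, and 0.50 without it). For all 3 genes the groups were separate by a small step, since KO replicate 2 was close to WT replicate 2.

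Lipid-associated macrophage genes, which are turned on in macrophages that take up debris, were above 0 for 17 of 18 with a median of 0.74. The groups were separate for 6, all higher in KO, against 3.09% of all genes. Without WT replicate 3 the median was 0.24, with 16 of 18 still above 0. Cd36, a scavenger receptor for oxidised lipids, was at 114, 113 and 59.4 TPM in WT and at 176, 164 and 136 TPM in KO (0.78 on the log2 scale, SE 0.253, adjusted p = 0.833). Apoe, the lipid carrier apolipoprotein E, was at 1387, 1951 and 561 TPM in WT and at 3021, 2086 and 3091 TPM in KO (1.23, and 0.71 without WT replicate 3). Fabp5, a fatty acid binding protein, differed by 1.16 and Cd9, a tetraspanin, by 0.71. WT replicate 3 was the lowest library for these 4 genes. Osteopontin, given above, belongs to the same list. The resident macrophage list, by contrast, had a median of −0.04 with 8 of 19 above 0, and 0.08 without WT replicate 3. F13a1, given above with the recruited list, is in the resident list as well and was its only gene with separate groups.

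**Figure D3:**
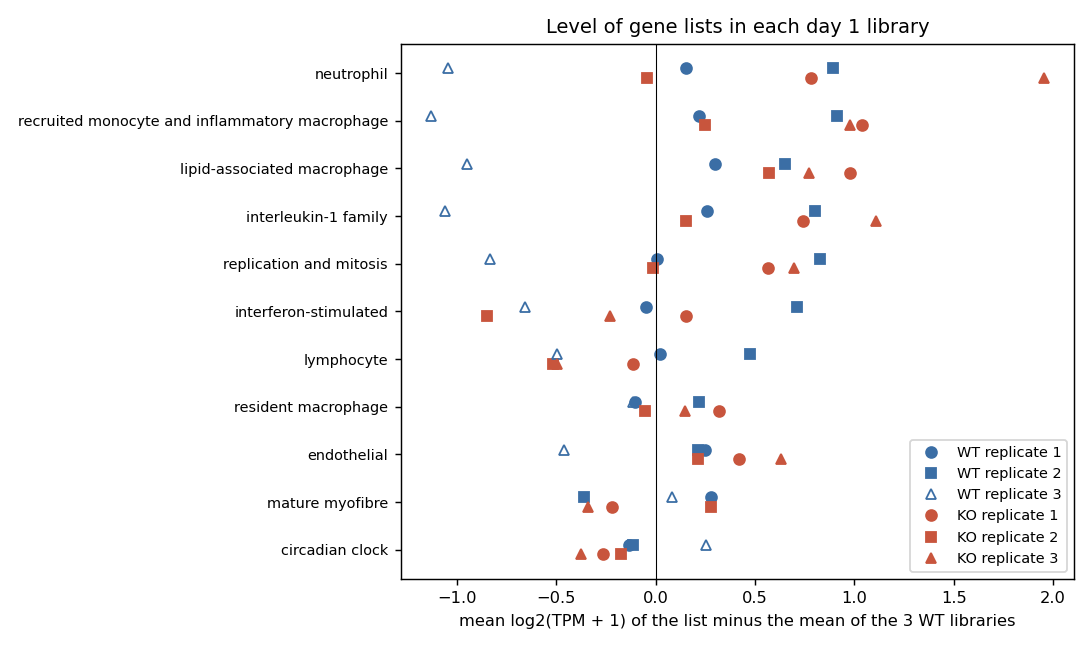
Mean of log2(TPM + 1) over the tested genes of a list, minus the mean of the 3 WT libraries (x axis), in each WT (blue) and KO (red) day 1 library for 11 lists (y axis), with WT replicate 3 as an open triangle. WT and KO libraries overlap in each list shown except the circadian clock.

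Genes for signals of the innate response were mostly above 0. The interleukin-1 family list had 9 of 12 genes above 0 with a median of 0.83, and 3 with an unadjusted p under 0.05, all higher. Without WT replicate 3 the median was 0.25 and 0 had an unadjusted p under 0.05 (limma). Il33, an alarmin held in nuclei of stromal cells and released on damage, was at 17.7, 18.8 and 3.69 TPM in WT and at 38.9, 19.2 and 23.3 TPM in KO (log2 difference 1.16, adjusted p = 0.844). Its KO replicate 2 was within 1 TPM of WT replicate 2, and without WT replicate 3 the difference was 0.48. Leukocyte adhesion and migration genes were above 0 for 30 of 31 (median 0.55, and 0.07 without WT replicate 3). Jam3, a junctional adhesion molecule used by leukocytes in crossing the vessel wall, was higher in all KO libraries (log2 difference 0.50).

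CXC chemokines, which attract neutrophils and lymphocytes, had 13 of 16 genes above 0 (median 0.52) and CC chemokines, which attract monocytes and others, 13 of 21 (median 0.36). Without WT replicate 3 the medians were −0.06 and −0.05. Ppbp, a platelet chemokine, differed by 1.79 and Cxcr2, the neutrophil receptor of this family, by 1.42, both with overlapping groups and with KO replicate 3 highest. Cxcl14, a chemokine of stromal cells, was at 178, 203 and 125 TPM in WT and at 248, 237 and 255 TPM in KO, a log2 difference of 0.57 with separate groups. In the other direction was Ccl21a, the chemokine of lymphatic vessels, at 19.2, 28.1 and 29.8 TPM in WT and 17.7, 10.4 and 0.86 TPM in KO (−1.84 on the log2 scale, SE 0.772, adjusted p = 0.844). KO replicate 3 was far below the rest, and near-identical Ccl21 copies in the genome make this value uncertain. The interleukin-6 family list had 10 of 13 genes above 0 (median 0.35, and 0.02 without WT replicate 3).

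Interferon-stimulated genes were lower in KO in the median, unlike the neutrophil and recruited monocyte lists. Of 30 genes, 5 were above 0, with a median of −0.34, but none of the 30 had an unadjusted p under 0.05 and none had separate groups. Their mean level was 4.16, 4.92 and 3.55 in WT and 4.36, 3.36 and 3.98 in KO. WT replicate 2 was the highest and KO replicate 2 the lowest, so the other 4 libraries were mixed. Without WT replicate 3 the median was −0.59 with 0 of 30 above 0, and without WT replicate 2 it was 0.04. Irf7, the factor that amplifies type I interferon, was at 80.6, 158 and 44.5 TPM in WT and at 73.4, 25.2 and 41.9 TPM in KO (log2 difference −0.94). Isg15, a ubiquitin-like protein, differed by −0.69 and Bst2, a membrane protein that retains viruses, by −0.36.

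Lymphocyte transcripts were scarce: 9 of 24 listed genes were tested. Their median was −0.16 and 3 of 9 were above 0, and without WT replicate 3 the median was −0.26 with 0 of 9 above 0. Gzma, granzyme A of cytotoxic lymphocytes, was at 7.83, 16.8 and 4.14 TPM in WT and at 3.28, 2.60 and 1.61 TPM in KO (−1.44 on the log2 scale, SE 0.473, adjusted p = 0.838). All KO libraries were below all WT libraries and above the control mean of 0.213 TPM. Nkg7, a granule protein of the same cells, was at 4.53, 6.86 and 2.39 TPM in WT and at 2.61, 1.19 and 1.18 TPM in KO (−1.03), and overlapped only between WT replicate 3 and KO replicate 1. Both differed in the opposite direction to the myeloid lists.

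Mature myofibre transcripts, from the fibres that CTX destroys, were lower in KO for 28 of 36 genes with a median of −0.42, and 3 had an unadjusted p under 0.05, all lower. The mean level on log2(TPM + 1) was 10.6, 9.96 and 10.4 in WT and 10.1, 10.6 and 9.98 in KO. It was 11.1 to 11.4 in control muscle, so on this scale groups overlapped and both lay under the controls. The summed level of the list was 297397 TPM in WT replicate 3, near the lowest control library at 300168 TPM. In the other day 1 libraries it was from 118133 to 179564 TPM. The median was −0.16 without WT replicate 3 and −0.66 without WT replicate 2. Without WT replicate 3, 0 of the 36 had an unadjusted p under 0.05 (limma). Actn3, the actinin of fast fibres, was at 2324, 2287 and 4597 TPM in WT and at 1412, 1795 and 2058 TPM in KO (log2 difference −0.74, adjusted p = 0.844). WT replicate 3 was near the control mean of 5198 TPM, and without it the difference was −0.41. Myoz1, a fast-fibre protein of the Z disc, differed by −0.68, Ryr1, the calcium release channel, by −0.60 and Mylpf, the fast regulatory light chain, by −0.49. Since TPM values are shares, a lower myofibre level and a higher level of infiltrating cells cannot be told apart from each other here.

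Mstn, myostatin, the inhibitor of muscle growth, was at 11.5, 8.10 and 48.4 TPM in WT and at 4.04, 5.42 and 8.94 TPM in KO (log2 difference −1.38, adjusted p = 0.838). WT replicate 3 alone was above the control mean of 13.3 TPM, and without it the difference was −0.64. The list of atrophy ubiquitin ligases and FoxO factors, which holds Mstn, had a median of −0.08 with 5 of 16 above 0. Satellite cell and myogenic genes had a median of 0.13 with 11 of 20 above 0, and plasma membrane repair genes had a median of 0.07 with 12 of 21 above 0. Groups were separate for 6 of the 20 myogenic genes with KO higher and for 1 with KO lower, against 3.09% and 3.38% of all genes. Of the 20, 1 had an unadjusted p under 0.05, and 0 had one without WT replicate 3 (limma).

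Among 43 lists, the circadian clock was the only list whose 3 KO means lay apart from the 3 WT means. Of all single genes, 6.47% had separate groups. No test is drawn from the separation of this list, which singled it out. Clock factors act in a daily loop in which the activators Clock and Arntl bind E-boxes in the genes of their own repressors, and time of tissue collection, which is not given in the sources used here, sets their level. The mean over 18 genes was 3.72, 3.74 and 4.11 in WT and 3.59, 3.68 and 3.48 in KO, with control muscle at 3.48, 3.34 and 3.45. Group means were 3.86 ± 0.22 and 3.58 ± 0.10 (SD, n = 3), and the gap between the lowest WT and the highest KO library was small. The median log2 difference was −0.23, with 14 of 18 below 0. Of the 18, 5 had an unadjusted p under 0.05, all lower, where 2.58% of all genes were lower at that threshold. Groups were separate for 3 of the 18 with KO lower and for 1 with KO higher, against 3.38% and 3.09% of all genes. Without WT replicate 3 the median was −0.14 and 0 of the 18 had an unadjusted p under 0.05 (limma). With each library left out in turn the median was from −0.35 to −0.14.

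Dbp, a clock-controlled output factor, was at 70.1, 43.5 and 111 TPM in WT and at 37.4, 53.4 and 28.9 TPM in KO (log2 difference −0.83, adjusted p = 0.844). Ciart, a repressor of the clock, was at 5.49, 5.23 and 12.8 TPM in WT and at 3.33, 4.34 and 2.62 TPM in KO (−0.91). Ciart groups were separate, whereas KO replicate 2 was above WT replicate 2 for Dbp. The related output factors Hlf and Tef differed by −0.61 and −0.48. Per1, a repressor gene chosen after its values were seen, was at 26.9, 28.4 and 34.2 TPM in WT and at 19.0, 16.1 and 22.5 TPM in KO (−0.62), with all KO libraries below all WT libraries. On days 4, 7 and 14 its log2 difference was 0.42, 0.33 and 0.15.

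Sequences before the RefSeq starts of Ciart and Per1 are shown with the E-box CACGTG, which reads the same on both strands, in capitals. The Ciart stretch is chr3:95882257-95882358 on the minus strand with 3 E-boxes, and the Per1 stretch is chr11:69098739-69098840 on the plus strand with 1 (GRCm38.p6, RefSeq). The Per1 stretch precedes 1 of 2 RefSeq starts of the gene and lies inside the longest GENCODE gene model, and the window before the other start holds 0. Of 32851 windows of 250 bases before a RefSeq start, 6.02% hold CACGTG. Of 15 clock genes with a window, 5 had it in a window (33.3%), against 6.86% of 27025 symbols. A match describes the letters and is not evidence of binding.
Ciart: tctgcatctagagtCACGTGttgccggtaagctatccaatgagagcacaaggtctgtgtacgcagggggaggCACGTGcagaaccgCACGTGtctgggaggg
Per1: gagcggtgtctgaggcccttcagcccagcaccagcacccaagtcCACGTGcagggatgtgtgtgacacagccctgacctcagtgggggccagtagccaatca

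Endothelial and collagen genes were mostly above 0. All 22 endothelial genes were above 0, with a median of 0.39, and 21 of 22 were above 0 without WT replicate 3, with a median of 0.18. The mean level was 4.73, 4.69 and 4.02 in WT and 4.90, 4.69 and 5.11 in KO, so that WT replicates 1 and 2 were level with KO replicate 2. Pecam1, the adhesion molecule CD31 of the vessel lining, was at 78.4, 74.1 and 46.2 TPM in WT and at 89.1, 79.2 and 93.2 TPM in KO (log2 difference 0.42). Aplnr, the apelin receptor, was separate between groups as well (0.69), while Angpt2, a factor that destabilises vessels, was not (1.02). Collagen genes had 19 of 23 above 0 (median 0.25), and 0.00 without WT replicate 3. Col15a1, a basement membrane collagen, was at 51.3, 49.7 and 29.9 TPM in WT and at 71.5, 61.0 and 66.1 TPM in KO (0.63, SE 0.219, adjusted p = 0.838). Matrix proteases and their inhibitors had a median of 0.27, and the fibro-adipogenic progenitor list, the connective tissue cells of muscle, had −0.01.

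Genes of cell division were above 0 for 33 of 34 (median 0.38) with 0 at an unadjusted p under 0.05. Their mean level was 3.45, 4.27 and 2.61 in WT and 4.01, 3.43 and 4.14 in KO, and the median was 0.01 without WT replicate 3. Cell cycle inhibitors had a median of 0.02. Among them, Gadd45g, a stress-induced growth arrest gene, was at 94.2, 109 and 176 TPM in WT and at 64.0, 55.8 and 60.6 TPM in KO (−1.01 on the log2 scale, SE 0.347, adjusted p = 0.838). All KO libraries were below all WT libraries and near the control mean of 60.1 TPM.

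In lipid metabolism, fatty acid oxidation and fuel switch genes were above 0 for 24 of 25 with a median of 0.27, and 3 had an unadjusted p under 0.05, all higher. Without WT replicate 3 the median was 0.23 and 2 had an unadjusted p under 0.05 (limma), higher as well. Acot2, a mitochondrial acyl-CoA thioesterase, was at 3.78, 2.87 and 4.58 TPM in WT and at 5.47, 6.70 and 5.40 TPM in KO (log2 difference 0.54). Its cytosolic paralog Acot1 was at 2.53, 3.49 and 1.38 TPM in WT and at 3.68, 4.05 and 15.1 TPM in KO (1.11), where KO replicate 3 was far above the others. Their sequences are alike, so reads may have been split between them. Adipocyte and lipid storage genes had a median of 0.31 (23 of 30 above 0) and 0.26 without WT replicate 3. The medians were lower without a KO library, 0.08 for fatty acid oxidation without KO replicate 2 and 0.08 for adipocyte genes without KO replicate 1. Cholesterol synthesis genes had a median of 0.02.

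For energy and protein turnover, nuclear oxidative phosphorylation genes had a median of 0.01 with 39 of 70 above 0, and the 13 mitochondrially encoded genes a median of 0.33 with 11 above 0. Glycolysis and glycogen genes had a median of −0.13. Proteasome subunits were below 0 for 32 of 35 with a median of −0.12, and the median without WT replicate 3 was −0.07. Psmb3, a subunit of the catalytic core, was at 364, 446 and 426 TPM in WT and at 353, 321 and 364 TPM in KO (log2 difference −0.25), and Adrm1, a ubiquitin receptor, differed by −0.29. The immunoproteasome and MHC class I list had a median of −0.05 and MHC class II of 0.10.

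Stress lists were mixed. Integrated stress response genes had a median of 0.27 and included members in both directions. Chac1, which degrades glutathione, was at 14.0, 3.00 and 2.69 TPM in WT and at 20.1, 22.6 and 12.03 TPM in KO (1.62 on the log2 scale, SE 0.633, adjusted p = 0.844), all under the control mean of 43.5 TPM. Ppp1r15a, the phosphatase subunit that ends this response, was at 33.3, 72.5 and 44.8 TPM in WT and at 20.6, 32.5 and 32.6 TPM in KO (−0.75, adjusted p = 0.838). Hmox1, the heme-degrading enzyme that macrophages induce on taking up red cells and myoglobin, was at 188, 237 and 60.6 TPM in WT and at 361, 276 and 498 TPM in KO (1.39, and 0.80 without WT replicate 3). Hmox1 and Ppp1r15a had separate groups and Chac1 did not.

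The other lists had small medians, except that of the erythrocyte. Medians were 0.22 for metallothionein, heme and iron, 0.01 for heat shock and chaperones, 0.02 for immediate early and Klf factors, 0.06 for complement, −0.09 for smooth muscle and pericyte and 0.16 for Schwann cell and nerve genes. Complement genes were lower in all KO than in all WT libraries for 4 of 19, against 3.38% of all genes, and 0 of the 19 had an unadjusted p under 0.05 (limma). The erythrocyte list had a median of 0.58 over 7 tested genes, which was 0.16 without WT replicate 2 and 0.93 without KO replicate 3. The epidermis list had one of 0.30 over 5 genes, which was 0.03 without KO replicate 1. Of 20 pancreas genes, 1 was tested, at 0.01. The library that held pancreas transcripts was also the lowest in the neutrophil, recruited monocyte, lipid-associated macrophage and interleukin-1 family lists, and 18 of 43 lists changed the sign of their median when a single library was left out.

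**Figure D4:**
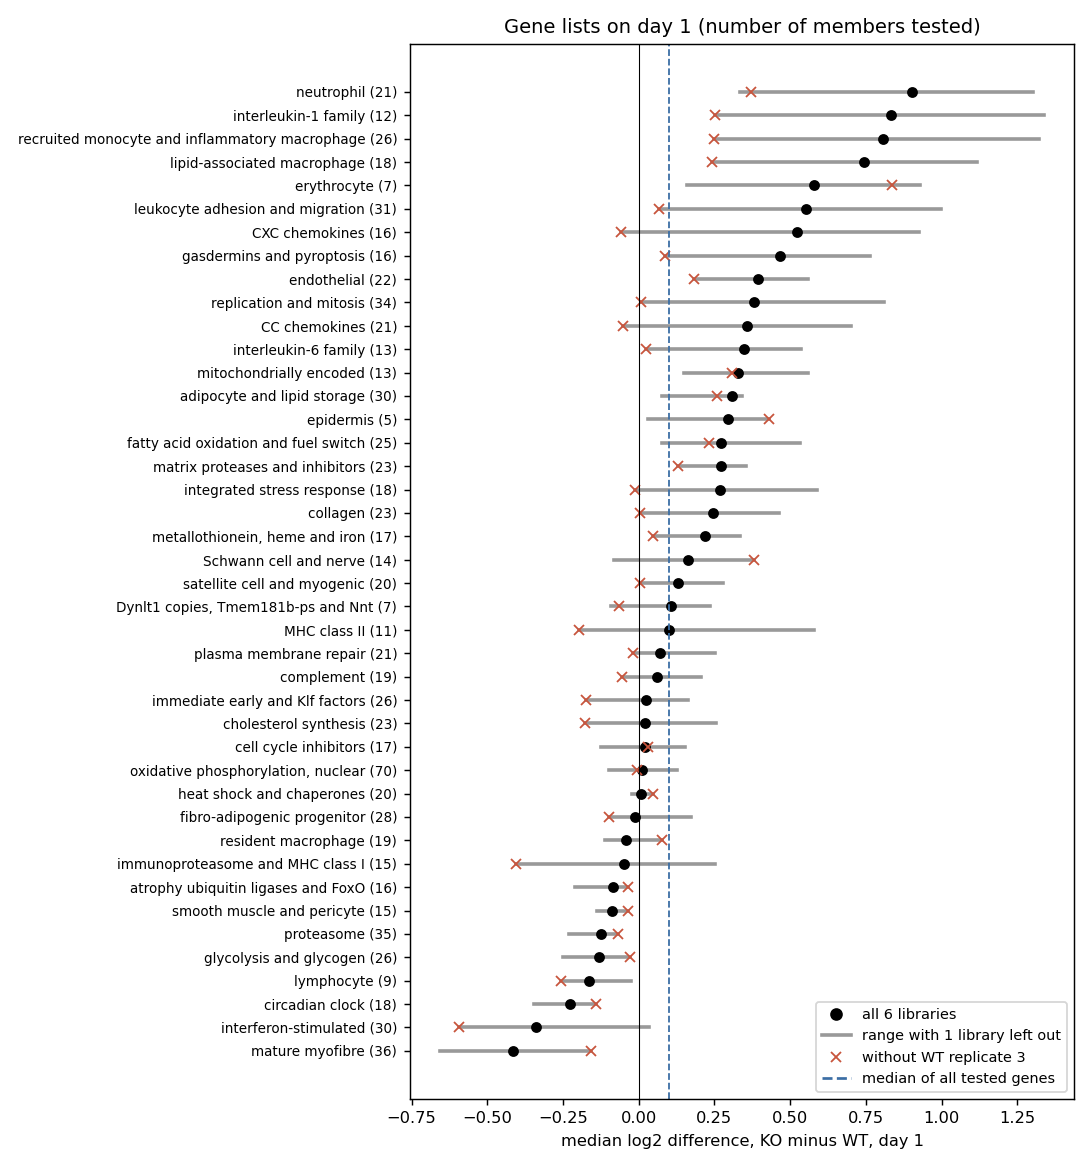
Median log2 difference, KO minus WT on day 1 (x axis), of each gene list with at least 5 tested genes (y axis), as points, with the value without WT replicate 3 as a cross and the range with each library left out in turn as a bar. The dashed line marks the median of all tested genes, 0.10, and 24 of all 43 lists lay above it.

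Genes of pyroptosis itself, the lytic death that gasdermins carry out, were mostly above 0. Of 16 tested genes of the gasdermin and pyroptosis list, 14 were above 0 with a median of 0.46 (0.09 without WT replicate 3), and only Gsdme had an unadjusted p under 0.05. Gsdmd, the gasdermin cut by inflammatory caspases, was at 18.5, 33.1 and 9.69 TPM in WT and at 26.4, 18.5 and 31.7 TPM in KO (log2 difference 0.43). Pycard, the inflammasome adaptor, differed by 0.50 and Casp8, an initiator caspase, by 0.51. Groups overlapped for these 3 genes, WT replicate 3 was lowest in each, and without it the differences were 0.01, 0.00 and 0.07.

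The differences of several lists had another sign on day 4 than on day 1. The median over all genes was 0.10 on day 1, −0.30 on day 4, −0.19 on day 7 and 0.09 on day 14. The neutrophil list had medians of 0.90, −0.66, −0.05 and 0.03, and the recruited monocyte list 0.81, −0.97, −0.48 and 0.18. Mature myofibre genes went the other way, with −0.42, 0.64, 0.32 and −0.02. Without WT replicate 3 of day 1, the day 1 medians of these 3 lists were 0.37, 0.25 and −0.16. KO libraries of day 4 had the largest spread of all groups (median SD 0.403), and no library of a later day was left out. The contrast between days was tested gene by gene as the day 1 difference minus the mean difference of days 4, 7 and 14. It called 0 genes at an adjusted p of 0.05 (limma), while 1709 genes (12.4%) had an unadjusted p under 0.05. Medians of this contrast were 0.23 over all genes, 1.13 for neutrophil, 1.12 for recruited monocyte, −0.73 for mature myofibre and −0.28 for clock genes. For 10 of 26 recruited monocyte genes and 18 of 36 myofibre genes the unadjusted p of this contrast was under 0.05.

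**Figure D5:**
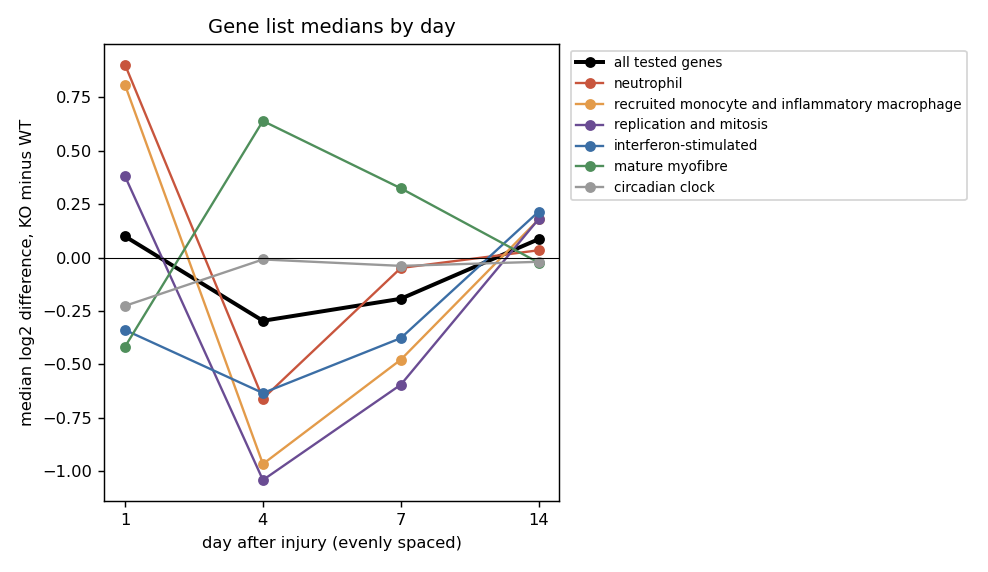
Median log2 difference, KO minus WT (y axis), of 6 gene lists and of all tested genes on days 1, 4, 7 and 14 after CTX (x axis, days evenly spaced). Neutrophil and recruited monocyte lists were above 0 on day 1 and below 0 on day 4, and the mature myofibre list was below 0 on day 1 and above 0 on day 4.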

How the data were processed

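RNA-seq of mouse muscle was analysed from the tables that the authors deposited. The authors gave TPM values per gene, from total RNA, a SMARTER mRNA kit and paired-end Illumina reads, with quality control and alignment to the genome (mm10 in the submitters' processing notes). The aligner, counting tool and annotation are not given in the sources used here. TPM keeps no read number, so depth is unknown and no counting interval was computed. The injured table holds 55852 entries, of which 436 are StringTie models (227 tested), and 52083 of 55416 Ensembl IDs were matched to GENCODE mouse release 21 (GRCm38), which gave positions. Other tested entries without a symbol (254 with StringTie models) were kept in the tests. Columns of the authors' own comparisons were not used.

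Groups and replicates were taken from titles. Values were log2(TPM + 1), a scale that understates changes of low genes, and genes with at least 1 TPM in at least 3 of the 6 libraries were tested with limma 3.58.1 (R 4.3.3) with a variance trend. The 8 groups of 24 injured libraries shared an estimate of the spread (16 residual degrees of freedom), and p-values were adjusted by Benjamini-Hochberg over 13810 genes. Contrasts were KO minus WT on day 1, and that difference minus the mean of the later days. On simulated data with 100 genes changed by each size, 55% were recovered at log2 1 and 93% at log2 2. The simulated noise was independent between genes, with 1 spread per gene shared by the 8 groups. Shifts of a whole library were not simulated, and the real WT day 1 group spread more (median SD 0.327) than all groups but KO on day 4 (0.403). These shares therefore do not give the share of real day 1 changes that could be recovered. The WT day 1 libraries stand in both tables and correlated with themselves at r of 0.993 to 0.994. No pair of day 1 libraries had over 0.36% identical values, so all were kept.

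Genes named are Gsdme, each gene with an adjusted p under 0.05, the 12 genes in each direction with the lowest unadjusted p (mean of at least 5 TPM in a genotype, no overlap, no model names), and in each of 43 lists up to 4 members with the highest mean TPM and up to 4 with the lowest p if under 0.05. Of the genes this rule names, 1 is not reported here. Per1, the pancreas genes and values of the later days were added beside them. Members and lists were chosen with earlier results of these data known. Sequences are from RefSeq (GRCm38.p6). The alternatives changed the scaling, the pseudocount, the filter, the libraries fitted, the variance trend, library weights and a replicate block, and left out each library in turn.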

Additional observations from a re-analysis of the deposited data

How the results depend on the processing

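The count of 1 gene past an adjusted p of 0.05 was 2 with the 6 day 1 libraries alone, 14 without a filter, 0 with a minimum of 5 TPM, 0 with a pseudocount of 0.1, 2 with median-of-ratios scaling, 4 with quantile scaling and 2 with the 50 most abundant genes removed. It was from 0 to 2 with each day 1 library left out in turn, with 0 without WT replicate 2, WT replicate 3, KO replicate 1 or KO replicate 3. Genes with an unadjusted p under 0.05 were from 250 (without WT replicate 3) to 2215 (without WT replicate 2). Library quality weights gave 7959 genes, with weights of 49, 0.196 and 0.181 for the WT libraries, and a gene-by-gene estimate of the weights, added after seeing the data, gave 2979, with 5.07, 0.289 and 0.261. With such weights Isg15 turned to 0.03 and Bst2 to 0.009, and Bst2 was from −0.737 to 0.009 with each library left out in turn (the highest without WT replicate 2). For Gm42793, 9 of 16 alternatives passed, library quality weights among them (limma adjusted p = 5.37e-08). In the others the adjusted p was from 0.0002 to 0.902. The contrast between days called 1 gene, Gm42793, with median-of-ratios scaling. It called 7 genes without a filter, 2 with quantile scaling, 1 without the variance trend and 1 without WT replicate 1. With library weights it called 7771 genes, and 3453 with the gene-by-gene estimate. The other alternatives that tested it called 0.

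Replicate numbers did not pair libraries (r of deviations 0.192, −0.504 and −0.183 for numbers 1, 2 and 3), and with a replicate block 0 genes passed (lowest adjusted p = 0.0846).

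Scaling shifted the median of all genes from 0.10 to 0.00 (median-of-ratios) and −0.01 (quantile). Of 730 list medians under an alternative, 709 moved by less than the spread between libraries. The others were heat shock −0.11, glycolysis −0.25 and smooth muscle −0.21 with median-of-ratios scaling, glycolysis 0.047, mitochondrially encoded −0.063 and smooth muscle −0.15 with the abundant genes removed, satellite cell −0.064 and smooth muscle −0.014 with a minimum of 5 TPM, and pancreas −0.43 without a filter. With weights they were resident macrophage 0.23, Schwann cell 0.69, mitochondrially encoded −0.093, glycolysis −0.28, complement 0.40 and pancreas 0.48. With each library left out, medians of the interleukin-6 family were from 0.024 to 0.535, of the integrated stress response from −0.011 to 0.587, of glycolysis from −0.25 to −0.03 and of smooth muscle from −0.137 to −0.036.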

Other observations

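WT replicate 1 and KO replicate 2, the pair of libraries with the highest correlation, were chosen after seeing the data and have different genotypes. Their mean levels on log2(TPM + 1) were 3.61 and 3.41 for the neutrophil, 5.61 and 5.64 for the recruited monocyte, 3.45 and 3.43 for the replication and 10.6 and 10.6 for the mature myofibre list. They were farther apart for interferon-stimulated genes (4.16 and 3.36) and lymphocyte genes (2.03 and 1.49). Spp1 was at 859 TPM in WT replicate 1 and at 1699 TPM in KO replicate 2. With 1 library of each genotype, these differences have no replicate check.

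Pancreas transcripts were also found in later libraries of the series. Their summed level over 20 genes was 97.7 TPM in KO replicate 2 and 25.3 TPM in KO replicate 3 on day 4, and 25.7 TPM in WT replicate 1 on day 4, of which 11.5 TPM was without Cela1, a member that muscle libraries held as well. In control libraries the sum was from 0.62 to 0.90 TPM.

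The Dynlt1 copies, Tmem181b-ps and Nnt, genes that can differ between C57BL/6 substrains, had a median log2 difference of 0.11 over 7 tested genes. Members differed in direction, with 4 above 0 and 3 below. Dynlt1b, given above, is among them, at −0.82 with separate groups. Without WT replicate 3 the median was −0.065, and 3 of 7 had an unadjusted p under 0.05 (limma), all lower. On days 4, 7 and 14 the list median was −0.725, −0.596 and −0.389. Nnt, the mitochondrial transhydrogenase, was at 25.1, 13.4 and 12.5 TPM in WT and at 10.3, 14.4 and 7.92 TPM in KO (log2 difference −0.57, adjusted p = 0.844 by limma). The groups overlapped and neither group was at 0. On days 4, 7 and 14 the log2 difference of Nnt was −0.77, −1.24 and −0.84.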
